A study of Mus musculus with 6 samples.

Results

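The mast cell protease and granzyme cluster was read as 10 genes, namely Mcpt8, Mcpt1, Mcpt2, Mcpt4, Cma1, Ctsg, Gzmb, Gzmc, Cpa3 and Tpsb2. The members were all probe sets that the platform annotation pairs with exactly 1 symbol from that list. This gave 11 probe sets, 1 for each gene and a second for Tpsb2, of 45037 probe sets tested, and 10 of 18193 genes. The rule itself uses no measured value, but the genes were chosen with earlier results of these data known.

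Expression was measured on 6 arrays from C6, a single myeloid clone of mouse haematopoietic progenitor cells. The withdrawal arrays (n = 3) came from cells 48 h after removal of doxycycline. The doxycycline arrays (n = 3) came from cells kept under 1 µg/ml doxycycline. Both groups carry the Rosa26rtTA allele on a C57BL/6J background and the vector pRRL.TET.Evi1.IRES.EGFP, which makes a codon-optimized mouse Evi1 as long as doxycycline is present. Evi1 is a zinc finger transcription factor of the Mecom locus, and the series describes the clone as dependent on it. All cells grew in S3F11 medium with murine stem cell factor (50 ng/ml), murine interleukin 3 (20 ng/ml), human Flt3 ligand (50 ng/ml) and human interleukin 11 (50 ng/ml). The comparison asks which transcripts differ once Evi1 induction has stopped. Because 1 clone was used and the labels do not say that replicates were separate cultures, p-values here measure spread among arrays that may be technical repeats.

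Mast cells, basophils and neutrophils store serine proteases, bound to the proteoglycan serglycin, in cytoplasmic granules and release them when activated. In the mouse the chymases, cathepsin G and most granzymes descend from a shared ancestor and lie side by side in 1 locus on chromosome 14, while the tryptases and carboxypeptidase A3 are encoded elsewhere. Which proteases a cell stores marks its lineage: Mcpt8 is known from basophils, Mcpt1 and Mcpt2 from mucosal mast cells, Mcpt4, Cma1 and Tpsb2 from connective tissue mast cells, Ctsg from neutrophil precursors as well as mast cells, and Gzmb and Gzmc from cytotoxic lymphocytes. Mast cells and basophils of the mouse can also make granzyme B.

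The promoters of 6 members are printed here to show how alike or unlike the control regions of neighbouring proteases are, since 3 of them (Mcpt8, Ctsg and Gzmb) belong to genes that changed, Cpa3 to a bright gene without a call, and Mcpt1 and Mcpt4 to dim neighbours. Each is the 250 bases before the start site in RefSeq, build GRCm38.p6, written 5′ to 3′ on the strand of the gene. Capitals mark TGTGGT, the core letters bound by Runx factors, and GATAA, the core letters bound by GATA factors, each on either strand (ACCACA and TTATC on the other strand), and TATAAA, the TATA box, on the gene's own strand.
Mcpt8 (chr14:56085198-56085447, minus strand): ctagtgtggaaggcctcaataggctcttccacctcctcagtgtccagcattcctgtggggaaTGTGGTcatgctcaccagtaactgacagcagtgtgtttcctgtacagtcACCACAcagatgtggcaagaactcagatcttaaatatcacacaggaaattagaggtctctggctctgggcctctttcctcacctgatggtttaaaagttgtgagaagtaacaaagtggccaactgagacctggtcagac
Ctsg (chr14:56102575-56102824, minus strand): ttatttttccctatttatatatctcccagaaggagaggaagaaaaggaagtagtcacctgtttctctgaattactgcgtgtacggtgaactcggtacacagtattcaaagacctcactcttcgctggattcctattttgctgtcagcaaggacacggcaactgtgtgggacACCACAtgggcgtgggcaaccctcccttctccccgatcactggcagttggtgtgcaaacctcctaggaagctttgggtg
Gzmb (chr14:56262335-56262584, minus strand): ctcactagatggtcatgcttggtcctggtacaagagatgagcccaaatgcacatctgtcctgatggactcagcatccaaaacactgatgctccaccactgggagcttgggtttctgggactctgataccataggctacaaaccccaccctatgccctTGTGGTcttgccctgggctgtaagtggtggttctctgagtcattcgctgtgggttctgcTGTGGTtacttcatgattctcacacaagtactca
Cpa3 (chr3:20242182-20242431, minus strand): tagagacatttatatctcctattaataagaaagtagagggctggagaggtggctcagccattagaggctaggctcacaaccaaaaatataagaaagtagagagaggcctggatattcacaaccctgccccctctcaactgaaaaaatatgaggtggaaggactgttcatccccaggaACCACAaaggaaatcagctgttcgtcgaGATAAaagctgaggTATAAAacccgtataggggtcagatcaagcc
Mcpt1 (chr14:56017714-56017963, plus strand): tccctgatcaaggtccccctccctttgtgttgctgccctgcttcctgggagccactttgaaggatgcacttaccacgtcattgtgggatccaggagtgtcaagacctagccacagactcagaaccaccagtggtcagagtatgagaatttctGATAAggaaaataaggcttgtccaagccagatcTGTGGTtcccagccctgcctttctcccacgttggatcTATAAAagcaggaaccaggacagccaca
Mcpt4 (chr14:56062311-56062560, minus strand): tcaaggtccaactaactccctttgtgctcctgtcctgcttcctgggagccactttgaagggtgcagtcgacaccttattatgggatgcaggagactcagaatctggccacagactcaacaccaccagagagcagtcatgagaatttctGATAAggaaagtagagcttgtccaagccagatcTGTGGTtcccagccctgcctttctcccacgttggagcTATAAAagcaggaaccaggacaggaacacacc

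RefSeq promoters were matched for 8 of the 10 members, all but Mcpt2 and Tpsb2, so a gene that changed, Mcpt2, is missing from what follows. Mcpt1 and Mcpt4 were the most alike of the 28 pairs, with 207 identical bases in 254 aligned positions (81.5%), and every other pair lay between 42.4% and 51.5%. That range holds Cma1 and Cpa3, which lie on different chromosomes, at 50%. Only member promoters were aligned, so the range has no baseline and does not show that neighbours are alike. Among these 8 the Gzmc start lies 6990 bases inside the gene's widest annotated extent, that of Mcpt8 302 bases inside and that of Cpa3 28 bases inside. The windows of Gzmc and Mcpt8 thus lie wholly within that extent, and both are kept in the counts below. The letters TGTGGT were found in 7 of the 8 member promoters, all except Cma1, in 4 of 6 other promoters of the locus and in 14.0% of all 32851 promoter windows of this length. The letters GATAA were found in 4 of 8 (Mcpt1, Mcpt4, Cma1 and Cpa3) and in 3 of the 6 other promoters of the locus, against 22.6% of all windows. TATAAA was found in 3 of 8 (Mcpt1, Mcpt4 and Cpa3) and in 1 of the 6 others, against 7.59%. The remaining 5 of the 8 motifs searched, given with their share of all windows, were AGGAAG, an ETS site, in 5 of 8 (29.5%); CATGTG, an E-box bound by Mitf, in 2 of 8 (12.3%); TTCNNNGAA, a Stat site, in 1 of 8 (7.02%); TTNNGCAA, a C/EBP site, in 0 of 8 (9.56%); and AAGATAA, a longer form of GATAA found in Evi1 sites, in 0 of 8 (3.1%). These 5 were searched on both strands, and in Ctsg the CATGTG match overlaps that of TGTGGT. In the 6 other promoters of the locus AGGAAG was found in 4, and the rest of these 5 motifs in 0. The locus genes are related copies, so their matches are not independent, and a match of letters is not a binding site.

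After withdrawal, Mcpt8 and Ctsg rose and Mcpt2 and Gzmb fell, while Mcpt1, Mcpt4, Cma1, Gzmc, Cpa3 and both probe sets of Tpsb2 did not pass the test. Values are the authors' RMA expression on the log2 scale, and each difference is withdrawal minus doxycycline with its standard error (SE) from limma. Rose and fell mean an adjusted p below 0.05 after Benjamini-Hochberg adjustment over all 45037 probe sets. Of the 11 probe sets 2 were called higher, beside 0.790% of all probe sets tested, and 2 lower, beside 1.18%, which makes 4 of 11 beside 1.97%. The groups did not overlap on 6 of the 11, beside 20.8% of all probe sets, with 3 higher beside 10.2% and 3 lower beside 10.7%. The median difference over the 11 was -0.12, beside 0.01 over all probe sets, and the median size regardless of sign was 0.19, beside 0.09. Because the members were chosen with earlier results of these data known, these counts and medians describe the list and are not a test of it. In these bulk samples a change in the number of cells of one kind and a change in RNA per cell cannot be told apart.

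**Figure D1:**
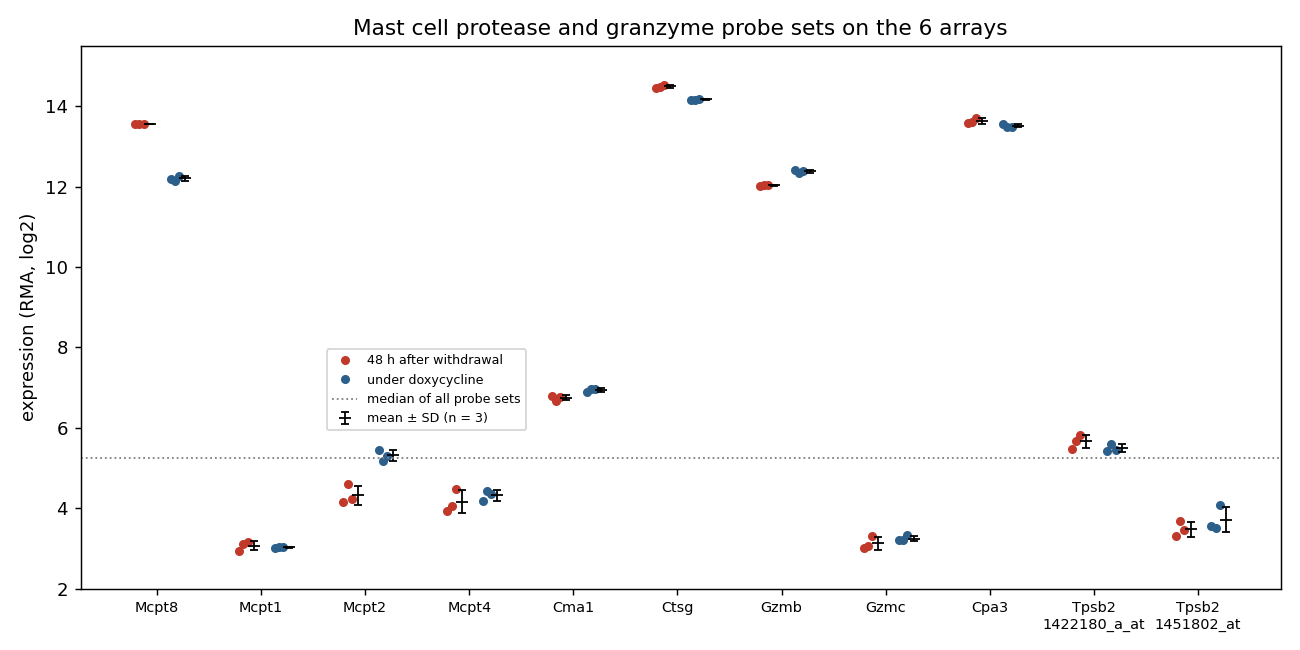
Expression (RMA, log2) of the 11 probe sets on the 3 withdrawal arrays (red, left) and the 3 doxycycline arrays (blue, right), with mean ± SD and the median of all probe sets (dotted, 5.24). Mcpt8 and Ctsg sit higher and Mcpt2 and Gzmb lower after withdrawal without overlap, and Mcpt1, Mcpt4, Gzmc and 1 Tpsb2 probe set lie under the dotted line in both groups.

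The arrays had medians from 5.22 to 5.27, and the lowest Pearson correlation of any 2 arrays over all probe sets was 0.994. The second principal component (31.9% of the variance of the brighter probe sets) set withdrawal replicate 3 and doxycycline replicate 1 apart from the other arrays, so member results are also given without both, a choice made after seeing the data. Calls over all probe sets, 356 higher and 530 lower on the 6 arrays, dropped to between 88 and 256 higher and between 173 and 346 lower with 1 array left out, and to 28 higher and 94 lower without these 2, so losses of calls below stand beside a loss across the whole table. A group mean under 5.24, the median of all probe sets, is called dim below. Of 8 progenitor markers measured 0 were dim in both groups, among them Kit (9.55 after withdrawal, 9.29 under doxycycline), the receptor for stem cell factor, and Spi1 (10.48 and 10.21), a transcription factor of the myeloid lineage. On this list 0 rose and 1 fell, the surface antigen gene Cd34 (-0.51 ± 0.10, limma adjusted p = 0.0463), whose call was lost in the fit without withdrawal replicate 3 and doxycycline replicate 1 and in 5 of the 6 fits that left out 1 array, all but that without withdrawal replicate 1, as well as with arrays centred on their medians. The 3 probe sets of Mecom averaged from 2.63 to 3.55 after withdrawal and from 2.67 to 3.66 under doxycycline; as the transgene is codon-optimized, they may not read it and do not check the labels.

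Mcpt8, which encodes the serine protease mMCP-8 of mouse basophils, had values of 13.57, 13.56 and 13.56 after withdrawal, against 12.19, 12.15 and 12.27 under doxycycline. All 3 withdrawal arrays lay above all 3 doxycycline arrays, by far more than the spread within either group. The means were 13.56 ± 0.0045 after withdrawal and 12.20 ± 0.063 under doxycycline (SD, n = 3 each), a difference of 1.36 ± 0.06 (limma adjusted p = 0.000139), or 2.57-fold higher. The 95% interval of the difference ran from 1.21 to 1.51. Mcpt8 was called in all 13 alternatives, with differences from 1.33 to 1.39 and adjusted p up to 0.0211. The largest of these came from the fit without withdrawal replicate 3 and doxycycline replicate 1.

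Ctsg encodes cathepsin G, a chymotrypsin-like protease of the primary granules of neutrophil precursors, and is the next protein-coding gene beside Mcpt8. It had values of 14.45, 14.49 and 14.53 after withdrawal, against 14.16, 14.16 and 14.18 under doxycycline. The groups did not overlap, and their gap was several times the spread within them. The means were 14.49 ± 0.041 after withdrawal and 14.17 ± 0.0099 under doxycycline (SD, n = 3 each). The difference was 0.32 ± 0.06 (limma adjusted p = 0.0492), with a 95% interval from 0.18 to 0.47. Leaving out any 1 array ended the call (adjusted p from 0.0937 to 0.183), as did the fit without withdrawal replicate 3 and doxycycline replicate 1 together (adjusted p = 0.235), while the difference stayed between 0.30 and 0.36 under every alternative. The highest value of any probe set on the arrays was 15.20; whether signal near that top is compressed was not tested.

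Mcpt2 encodes mMCP-2, a chymase-related protein of mucosal mast cells. Its values were 4.15, 4.59 and 4.23 after withdrawal, against 5.45, 5.18 and 5.31 under doxycycline. The withdrawal arrays were all below the doxycycline arrays, but the withdrawal mean of 4.32 ± 0.23 was dim and the doxycycline mean of 5.31 ± 0.13 barely above the dim level (SD, n = 3 each). The difference was -0.99 ± 0.13 (limma adjusted p = 0.0115), which makes Mcpt2 1.98-fold lower on this scale; near the floor of an array the size of a fold is uncertain. The 95% interval ran from -1.29 to -0.69. Among the fits on fewer arrays, the call was lost without doxycycline replicate 1 (adjusted p = 0.0675), without doxycycline replicate 3 (adjusted p = 0.0667), and without withdrawal replicate 3 and doxycycline replicate 1 together (difference -0.88, adjusted p = 0.163).

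Gzmb encodes granzyme B, which cleaves after aspartate and triggers death of target cells once perforin lets it in. It had values of 12.01, 12.03 and 12.05 after withdrawal, against 12.41, 12.34 and 12.39 under doxycycline. The lowest doxycycline array lay above the highest withdrawal array, with means of 12.03 ± 0.021 after withdrawal and 12.38 ± 0.039 under doxycycline (SD, n = 3 each). The difference was -0.35 ± 0.06 (limma adjusted p = 0.0392), or 1.27-fold lower, with a 95% interval from -0.49 to -0.20. No call was left once any 1 array was dropped (adjusted p from 0.0751 to 0.163), or in the fit without withdrawal replicate 3 and doxycycline replicate 1 together (adjusted p = 0.201), with differences from -0.37 to -0.33 throughout. Mcpt8 and Gzmb were both bright in both groups and moved in opposite directions.

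**Figure D2:**
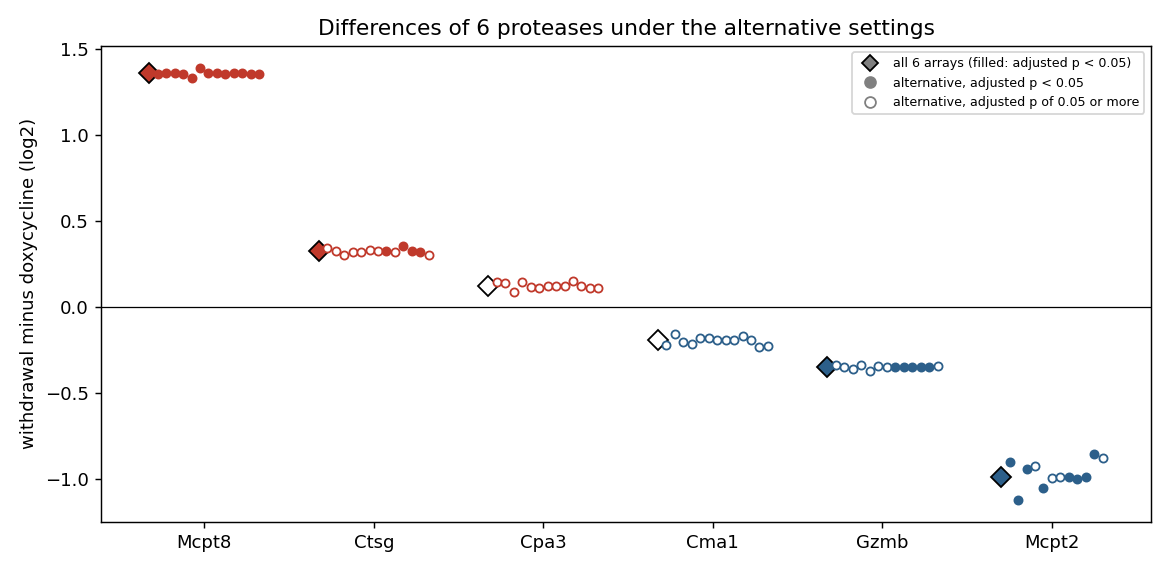
Difference (withdrawal minus doxycycline, log2) of 6 proteases on all 6 arrays (diamonds) and under 12 or 13 alternatives each (circles), filled where the adjusted p was below 0.05. Mcpt8 stays filled throughout, whereas Ctsg and Gzmb keep their size but are open in 9 and 8 alternatives, and Mcpt2 in 4.

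Cpa3, the carboxypeptidase A of mast cell granules, which trims the ends of peptides and is also made by basophils and their progenitors, was bright in both groups and did not pass. Its values were 13.59, 13.60 and 13.71 after withdrawal, against 13.56, 13.49 and 13.48 under doxycycline. The groups came close without overlapping, at a difference of 0.12 ± 0.07 (limma adjusted p = 0.474), and the 95% interval from -0.03 to 0.28 leaves out a change of the size seen for Mcpt8. Cma1, which encodes the mast cell protease mMCP-5, had values of 6.80, 6.67 and 6.77 after withdrawal, against 6.89, 6.96 and 6.97 under doxycycline. These did not overlap either, at a difference of -0.19 ± 0.07 (limma adjusted p = 0.253) and a 95% interval from -0.35 to -0.03, and Cma1 was not called under any of its 13 alternatives.

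The other members were dim or near the dim level, with groups that overlapped. Tpsb2 encodes the mast cell tryptase mMCP-6, which works as a tetramer held together by heparin. Its brighter probe set had values of 5.48, 5.68 and 5.82 after withdrawal, against 5.41, 5.60 and 5.46 under doxycycline, a difference of 0.17 ± 0.10 (limma adjusted p = 0.524). The dimmer one had values of 3.30, 3.68 and 3.45 after withdrawal, against 3.55, 3.52 and 4.08 under doxycycline, a difference of -0.24 ± 0.17 (limma adjusted p = 0.595). The 2 probe sets differed in sign and neither passed, so no direction is given for the tryptase. Mcpt4, the main chymase of connective tissue mast cells, had values of 3.94, 4.06 and 4.48 after withdrawal, against 4.17, 4.44 and 4.35 under doxycycline. Its wide 95% interval, from -0.49 to 0.18, left room for a modest change in either direction.

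Mcpt1, the chymase mMCP-1 of mucosal mast cells, and Gzmc, a granzyme of activated cytotoxic cells, were the dimmest in relation to the table's own floor, whose lowest value was 2.22. Mcpt1 had values of 2.94, 3.11 and 3.15 after withdrawal, against 3.02, 3.02 and 3.04 under doxycycline. Gzmc had values of 3.02, 3.05 and 3.30 after withdrawal, against 3.20, 3.20 and 3.32 under doxycycline. The differences were 0.04 ± 0.08 for Mcpt1 (limma adjusted p = 0.872) and -0.12 ± 0.09 for Gzmc (limma adjusted p = 0.642), and in both genes the arrays of the groups were interleaved. A fall from such a level could not be read on these arrays.

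The order of the locus was taken from the RefSeq gene table, in which 26 genes lie from Cma1 at one end to Gzmb at the other, 15 of them protein-coding and 8 of them members. A probe set of their own read 14 of the 26, the 8 members and 6 others. Along the locus these are Cma1, Mcpt-ps1, Mcpt1, Mcpt2, Mcpt4, Mcpt8, Ctsg, Gzme, Gzmd, Gzmg, Gzmn, Gzmf, Gzmc and Gzmb. The 2 that rose, Mcpt8 and Ctsg, are next to each other in this order, whereas the 2 that fell are apart, Mcpt2 on the chymase side and Gzmb at the far end. Mcpt4, dim in both groups, stands between Mcpt2 and Mcpt8, and on the other side of Ctsg every granzyme gene before Gzmb was dim in both groups.

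Of the 6 other genes of the locus 0 rose and 0 fell in limma; their median difference was 0.04, beside 0.01 over all 18193 genes, and at the gene level 1.20% of all genes were higher and 1.57% lower. At an unadjusted p under 0.05, 1 of the 6 was higher, Gzmd (0.20 ± 0.08, limma adjusted p = 0.345), whose arrays overlapped between the groups. That probe set lay near the floor, at 2.62 after withdrawal and 2.42 under doxycycline. A second probe set of Gzmd differed by 0.06 ± 0.06 (limma adjusted p = 0.768). The chymase pseudogene Mcpt-ps1 was the least dim, at 4.95 ± 0.12 after withdrawal and 4.82 ± 0.093 under doxycycline (SD, n = 3 each), a difference of 0.13 ± 0.09 (limma adjusted p = 0.557). Gzme, Gzmg, Gzmn and Gzmf, granzymes known from activated cytotoxic and natural killer cells, had differences from -0.02 to 0.04. A further 2 probe sets were left out because the annotation gives them 2 symbols each. The granzymes D to G are closely related copies, and their probe sets can read more than 1 of them.

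**Figure D3:**
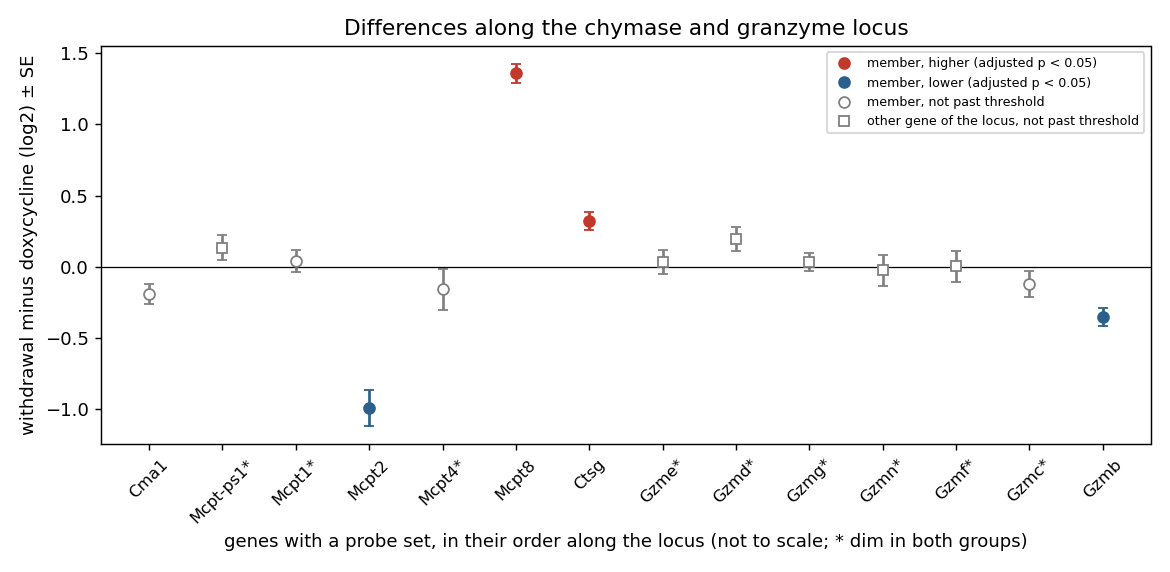
Difference (withdrawal minus doxycycline, log2) ± SE of the 14 genes of the locus that have a probe set, in their order along chromosome 14. Filled points passed the test: Mcpt8 (1.36) and Ctsg (0.32) stand side by side above the line, and Mcpt2 (-0.99) and Gzmb (-0.35) lie below it.

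Genes that act with these proteases were read in 4 lists chosen with earlier results of these data known. Of their 48 measured genes 6 rose and 2 fell, beside the 1.20% of all genes that were higher and the 1.57% that were lower. Of 13 measured proteases from outside the locus 1 rose and 0 fell, with a median difference of 0.03. It was Elane, neutrophil elastase (12.00 after withdrawal, 11.27 under doxycycline, difference 0.74 ± 0.07, limma adjusted p = 0.00281), lost at adjusted p = 0.0767 only without withdrawal replicate 3 and doxycycline replicate 1. Prss28, an implantation serine protease from the tryptase cluster, had the widest gap among those that did not pass, at 4.66 after withdrawal and 3.63 under doxycycline, dim in both groups (limma adjusted p = 0.0661), and Prtn3, proteinase 3, differed by 0.25 ± 0.06 (limma adjusted p = 0.117). Without withdrawal replicate 3 alone, 2 genes of this list rose, and without both arrays 0.

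Of 9 measured genes for the granule matrix and cytotoxic machinery 2 rose and 0 fell, with a median difference of 0.05. Cst7 encodes cystatin F, an inhibitor of the cathepsins that activate granule proteases, and differed by 1.08 ± 0.07 (limma adjusted p = 0.000568). Nkg7, a granule membrane protein of cytotoxic cells, differed by 1.32 ± 0.08 (limma adjusted p = 0.000423). Both were called in every alternative run for them. Srgn, the proteoglycan serglycin that holds the proteases, was bright at 14.51 after withdrawal and 14.31 under doxycycline and did not pass (limma adjusted p = 0.199). Vamp8, a protein of granule fusion, differed by -0.28 ± 0.07 (limma adjusted p = 0.123).

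Of 10 measured protease inhibitors 2 rose and 0 fell, with a median difference of -0.01. Serpinb1a, a serpin that inhibits cathepsin G and elastase, was at 13.53 after withdrawal and 13.04 under doxycycline, a difference of 0.49 ± 0.07 (limma adjusted p = 0.0150). Slpi, the secretory leukocyte protease inhibitor, differed by 0.40 ± 0.06 (limma adjusted p = 0.0232). Without any 1 array except withdrawal replicate 3, and without withdrawal replicate 3 and doxycycline replicate 1 together, 0 of the 10 rose. Serpinb9, an inhibitor of granzyme B, stood at 5.37 after withdrawal and 5.87 under doxycycline (-0.50 ± 0.15, limma adjusted p = 0.181), and Serpinb6a, whose human counterpart inhibits cathepsin G, differed by -0.24 ± 0.07 (limma adjusted p = 0.169).

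Of 16 transcription factors known from mast cells, basophils and their precursors 1 rose and 2 fell, with a median difference of -0.04. Cebpa, which drives granulocyte and basophil development, rose by 0.74 ± 0.07 (limma adjusted p = 0.00307). Tal1 (-0.66 ± 0.06, limma adjusted p = 0.00325) and Lmo2 (-0.42 ± 0.06, limma adjusted p = 0.0241), partners in a complex of stem, red cell and mast cell precursors, fell. Lmo2 passed in just 1 of the 6 fits on 5 arrays, that without withdrawal replicate 3; in the other 5 fits 1 gene fell, and without withdrawal replicate 3 and doxycycline replicate 1 together the list held 0 calls. Irf8, a factor of monocytes and dendritic cells, differed by -0.53 ± 0.10 (limma adjusted p = 0.0537) and Zeb2, a repressor, by -0.41 ± 0.09 (limma adjusted p = 0.0745).

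Marker lists of the cells that could hold these proteases differed in their counts. These lists too were chosen with earlier results of these data known, so the counts describe them and are not a test. Of the 64 genes measured on all marker lists, progenitors included, 16 rose and 7 fell. Over all genes 1.20% were higher and 1.57% lower. Of 11 basophil markers measured 7 rose and 0 fell, with a median difference of 0.66 and mean levels from 8.27 to 8.33 on the withdrawal arrays and from 7.72 to 7.80 on the doxycycline arrays. Ms4a2, the beta chain of the IgE receptor, differed by 1.16 ± 0.07, and the cytokine genes Il6 by 0.94 ± 0.06 and Il4 by 0.87 ± 0.08. The activation antigen Cd69 (0.67 ± 0.08), the histamine-forming enzyme Hdc (0.66 ± 0.06) and the receptor Cd200r3 (0.54 ± 0.08) also rose, with limma adjusted p from 0.000523 to 0.0207 over these 6 genes. Ms4a2 and Il6 were called in every alternative. The call of Cd200r3 was lost in every fit without 1 array except that without withdrawal replicate 3, and that of Cd69 without doxycycline replicate 3. Fcer1a, the alpha chain of the IgE receptor, differed by 0.15 ± 0.08 (limma adjusted p = 0.447). Il3ra, at 6.71 after withdrawal and 6.73 under doxycycline, differed by -0.02 ± 0.10 (limma adjusted p = 0.958). Of the basophil markers the integrin gene Itga2 and Ccr3, a chemokine receptor gene (0.16 ± 0.09), were dim in both groups. With 1 array left out 4 to 7 of the basophil markers rose, the fewest without doxycycline replicate 3, and without withdrawal replicate 3 and doxycycline replicate 1 together 2 rose.

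Of 11 mast cell markers, which share Ms4a2, Hdc and Fcer1a with the basophil list, 3 rose and 1 fell, with a median difference of 0.15 and mean levels from 7.95 to 8.03 on the withdrawal arrays and from 7.81 to 7.87 on the doxycycline arrays. The rises were those of Ms4a2, Hdc and Adora3, an adenosine receptor (0.55 ± 0.07, limma adjusted p = 0.0138), and the fall that of Slc18a2, the transporter that loads amines into vesicles (-0.70 ± 0.09, limma adjusted p = 0.00926). Tph1, which makes serotonin's precursor, differed by -0.45 ± 0.15 (limma adjusted p = 0.218) and Kit by 0.26 ± 0.10 (limma adjusted p = 0.277). Mrgprb1, Hpgds and Enpp3 were dim in both groups. The call of Adora3 was lost without doxycycline replicate 1, 2 or 3 and without withdrawal replicate 3 and doxycycline replicate 1 together. The fall of Slc18a2 was lost without doxycycline replicate 1 or 3, which left 0 falls on the list, and without withdrawal replicate 3 and doxycycline replicate 1 together 1 gene rose and 0 fell.

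Of 14 markers of cytotoxic lymphocytes, the cells best known for granzymes, 0 rose and 0 fell in limma, and 0 had an unadjusted p under 0.05; the median difference was -0.0044. In both groups 11 of the 14 were dim, among them Cd3g, Cd8b1, Ncr1, Klrd1, Gzma, Eomes and Ifng. Mean levels of the list ran from 4.06 to 4.24 on the withdrawal arrays and from 4.10 to 4.25 on the doxycycline arrays. Ncr1, an activating receptor of natural killer cells, differed by 0.20 ± 0.14 (limma adjusted p = 0.576) and Cd2, an adhesion molecule of lymphocytes, by -0.21 ± 0.17 (limma adjusted p = 0.651). Prf1, the pore-forming partner of granzyme B, had values of 4.82, 5.17 and 6.31 after withdrawal, against 6.21, 4.63 and 5.13 under doxycycline, so its highest arrays were the same ones that stood apart on the second component.

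Of 7 eosinophil markers 6 rose and 0 fell, with a median difference of 0.72 and mean levels from 8.69 to 8.80 on the withdrawal arrays and from 8.07 to 8.15 on the doxycycline arrays. With 1 array left out 4 or 5 rose, and 1 without withdrawal replicate 3 and doxycycline replicate 1 together. Of 9 markers of promyelocytes and neutrophils 2 rose (Elane, also counted above, and Camp) and 0 fell, with a median difference of 0.25. The call of Camp, the cathelicidin gene, was lost without any 1 array, and both calls were lost without the 2 arrays that stood apart. The widest others were Mpo (0.32 ± 0.07, limma adjusted p = 0.0580) and Mmp8 (-0.30 ± 0.06, limma adjusted p = 0.0670). Restricted to probe sets above the median level, 5 of the 9 rose and 1 fell. In that fit 862 of all probe sets kept were higher and 1082 lower, against 356 and 530 without the filter. Trend and robust options gave 8 rises and 1 fall, beside 1071 higher and 1389 lower over all probe sets. Of 9 red cell and megakaryocyte markers 0 rose and 5 fell, with a median difference of -0.59 and mean levels from 6.27 to 6.33 on the withdrawal arrays and from 7.24 to 7.36 on the doxycycline arrays. With 1 array left out 3 to 5 of these fell, the fewest without doxycycline replicate 2 or 3, and 3 without the 2 arrays that stood apart. The part of these shifts in the differences of Mcpt8, Ctsg, Mcpt2 and Gzmb was not tested.

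**Figure D4:**
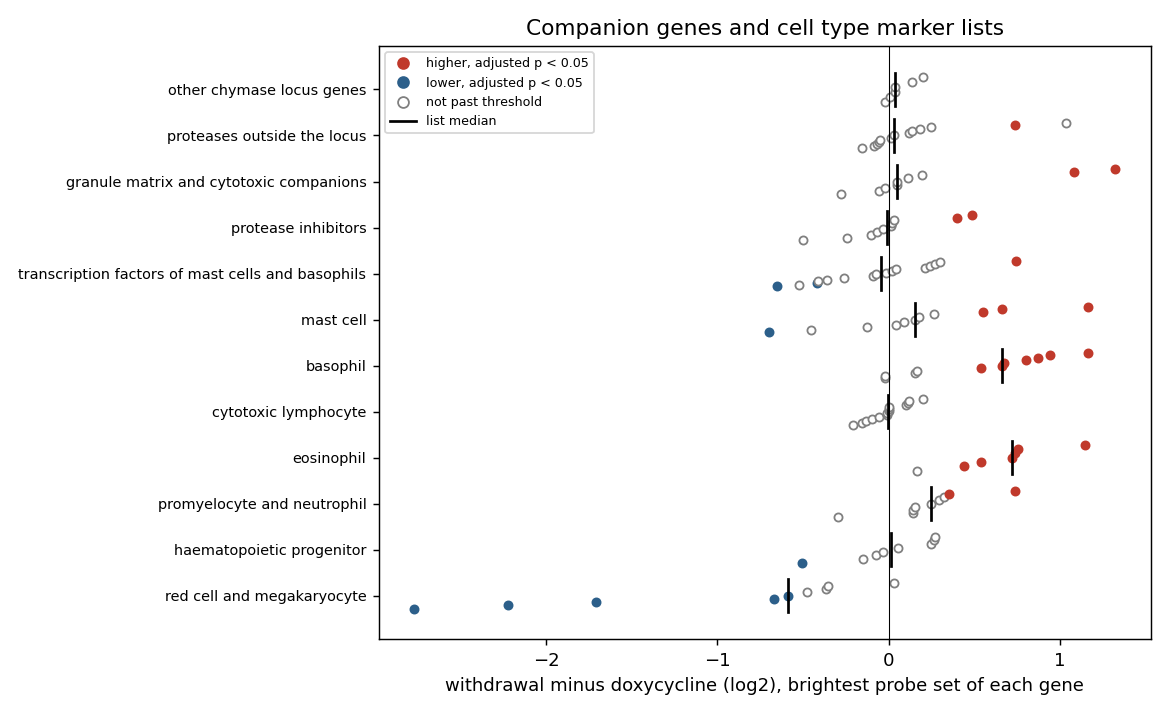
Difference (withdrawal minus doxycycline, log2) of each gene, read from its brightest probe set, in the 5 companion lists (top) and the 7 marker lists (bottom); filled points passed the test and black bars are list medians. The medians of the basophil (0.66) and eosinophil (0.72) markers lie to the right, that of the red cell and megakaryocyte markers (-0.59) to the left, and no cytotoxic lymphocyte marker is filled.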

How the data were processed

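RNA was amplified as cDNA and biotin-labelled, per the labels. The deposited log2 values, 1 per probe set and array, come from RMA per the submitters' processing notes (version not given in the sources used here; log2 was read from the range). RMA equalises the arrays' distributions at the level of single probes and compresses differences near the floor. The deposited values had interquartile ranges from 3.71 (withdrawal replicate 3) to 3.92 (withdrawal replicate 1).

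Of 45101 probe sets 64 controls were left out; 34945 had 1 symbol, 932 several and 9160 none. RefSeq (GRCm38.p6) identifiers matched 34741, changing 0 symbols. Members were read per probe set, list genes from their brightest one. Groups were compared with limma 3.58.1 in R 4.3.3 (lmFit, eBayes, two-sided, 4 residual degrees of freedom, Benjamini-Hochberg at 0.05), tested on simulated data. Named were all members and locus genes with a probe set, and per list up to 6 called genes and the 2 widest others. The eosinophil list and the red cell and megakaryocyte list were instead given by counts and levels. Dim markers, Il3ra and Prf1 were added after their values were seen. The members and lists were chosen with earlier results of these data known. Alternatives left out each array, blocked on replicate, filtered dim probe sets, recentred, renormalized, changed the variance model, weighted arrays, averaged probe sets or dropped shared ones. Figures used matplotlib 3.10.9 (Python 3.11.15).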

Additional observations from a re-analysis of the deposited data

How the results depend on the processing

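Of 138 differences of member probe sets under the alternatives, 115 kept their direction and side of the threshold, 21 lost the call and 2 changed sign, both of the dim Mcpt1 (-0.0017 without withdrawal replicate 3, the lowest of -0.0017 to 0.104 with 1 array left out, and -0.0070 without it and doxycycline replicate 1 together, a choice made after seeing the data). With 1 array left out, 1 member rose (lowest and highest 1) and 0 to 1 fell, 4 to 7 companion genes rose and 1 to 2 fell (6 and 2 of 48 on all arrays), and 9 to 14 marker genes rose and 3 to 6 fell (16 and 7 of 64). Without withdrawal replicate 3 and doxycycline replicate 1, 1 member rose and 0 fell, 2 companion genes rose and 0 fell, and 3 marker genes rose and 3 fell; that fit has 4 arrays. Over all probe sets the calls dropped too, to 88 to 256 higher and 173 to 346 lower with 1 array left out and to 28 and 94 without those 2, against 356 and 530 on all arrays. With the replicate number as a block (94 higher and 197 lower over all probe sets), 1 member rose and 0 fell. The calls of Mcpt2, Ctsg and Gzmb were lost, at limma adjusted p of 0.0709, 0.146 and 0.132. In that fit 1 companion gene fell and 10 marker genes rose. The correlations of same-numbered arrays' deviations were -0.30, 0.46 and -0.03. With 3 arrays a group and no word in the labels, they cannot tell whether the numbers pair the arrays. With arrays centred on their medians 1 member rose, as Ctsg missed the threshold at adjusted p = 0.0556. Above the median level 1 member fell, because Mcpt2 was filtered out, and 6 companion genes fell, beside 862 higher and 1082 lower over all probe sets kept. Repeated quantile normalization and averaging the probe sets of a gene each gave 4 falls of companion genes, and array weights gave 6. Trend and robust options gave 12 rises and 8 falls of companion genes and 11 falls of marker genes. Calls over all probe sets grew too, to 465 higher and 587 lower with quantile normalization and to 758 and 962 with array weights. With trend and robust options they reached 1071 and 1389. The cause was not tested. The 6 other genes of the locus had 0 calls in the alternatives that tested them; the filter on dim probe sets left none of them to test. Dim probe sets (Mcpt1, Mcpt4, Gzmc and 1 of Tpsb2) limit what can be seen, and 3 arrays a group limit the precision.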
